A study of Mus musculus with 8 samples.

Results

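Mirtrons and other miRNAs that are made without the nuclease Drosha were examined in small-RNA-seq data of Snd1 KO and WT mouse liver. The miRNAs were chosen by name, from what is known of their biogenesis, as mmu-miR-877-5p, mmu-miR-877-3p, mmu-miR-1224-5p, mmu-miR-702-3p, mmu-miR-702-5p, mmu-miR-320-3p and mmu-miR-484, which are written without the species prefix from here on. Of these 7 miRNAs, 6 were listed in at least 1 library, out of 1341 known mature miRNAs in all, and miR-1224-5p was listed in none. The tissue was the left lobe of the liver of male C57BL/6N mice of 8 to 12 weeks, collected around noon from animals that had not been fasted. The KO group held 4 mice in which the first exon of Snd1 was deleted in the germline, by crossing a floxed allele made in R1 embryonic stem cells (129/Sv) to CAG-Cre mice, which express Cre broadly. The deleted allele was then backcrossed to C57BL/6N, so that Snd1 was missing from all cells and not from hepatocytes alone. The WT group held 4 mice with the intact gene, and littermates of heterozygous parents were used. Each mouse gave 1 library, and the KO and WT libraries are named by their replicate numbers. Snd1 mRNA cannot be read from libraries of 18 to 30 base RNA, so the genotype was not checked in these data.

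In the usual pathway, Drosha and its partner DGCR8 cut a hairpin out of a long primary transcript, the hairpin is exported from the nucleus, and Dicer cuts off its loop to leave a 5p and a 3p strand, of which 1 is kept by an Argonaute protein. A mirtron takes another way in: it is a short intron that is spliced out, opened by the debranching enzyme and folded into a hairpin that Dicer can cut, so that the splice sites and not Drosha set its ends. The hairpin of miR-320 is made directly by RNA polymerase II as a short capped transcript, and its 3p strand is the one that is loaded. miR-484 likewise comes from a short hairpin described as independent of DGCR8. SND1, also called Tudor-SN, is a nuclease of the RNA-induced silencing complex that is known from human cells to cut certain miRNAs at CA and UA dinucleotides. The comparison of KO with WT liver asked which miRNAs differ in level when it is missing.

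The mature sequences are shown because the splice sites can be read from the mirtron arms and because the seed (bases 2 to 8, in capitals) decides which targets a miRNA pairs with. They are the RefSeq entries on GRCm38.p6, written 5′ to 3′, and were found for 6 of the 7 miRNAs.
miR-877-5p: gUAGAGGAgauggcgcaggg
miR-877-3p: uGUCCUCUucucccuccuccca
miR-1224-5p: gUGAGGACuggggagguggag
miR-702-5p: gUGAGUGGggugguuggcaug
miR-702-3p: uGCCCACCcuuuaccccgcucc
miR-484: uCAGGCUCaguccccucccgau
The 5p arms of all 3 mirtrons start with GU, the bases that open an intron at its splice donor. No seed was shared between these miRNAs. Among all mature mouse miRNAs of that table, only miR-702-5p shared its seed with another, miR-3102-5p, whose hairpin also fills an intron. Each of the 5 listed miRNAs with a sequence held at least 1 CA or UA dinucleotide, with a mean of 1.6 per miRNA, against 372 of 402 tested miRNAs with a sequence (92.5%), with a mean of 2.59.

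The hairpins of miR-877 and miR-1224 are shown in full because each is exactly 1 intron, with the mature arms in capitals.
Mir877: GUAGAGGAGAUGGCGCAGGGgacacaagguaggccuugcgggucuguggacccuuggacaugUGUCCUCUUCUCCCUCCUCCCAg
Mir1224: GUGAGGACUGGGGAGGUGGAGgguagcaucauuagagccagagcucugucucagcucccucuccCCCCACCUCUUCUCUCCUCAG
Mir877 lies at chr17:35960730-35960814 on the minus strand (GRCm38) and its 85 bases are an intron of Abcf1, an ATP-binding protein that takes part in translation initiation. Mir1224 lies at chr16:20604452-20604536 on the plus strand and its 85 bases are an intron of Vwa5b2. Both run from the GU of the donor to the AG of the acceptor. Mir702, at chr5:136991433-136991541 on the plus strand, is offset: it begins 9 bases before the donor of a 102 base intron of Plod3, a lysyl hydroxylase that modifies collagen, and ends 2 bases before the acceptor. The 5p arm of miR-702 starts on the first base of that intron. Mir320, at chr14:70443510-70443591 on the plus strand, overlaps no other annotated gene on its strand and begins 63 bases from the start of Polr3d, a subunit of RNA polymerase III transcribed from the opposite strand. Mir484, at chr16:14159626-14159692 on the plus strand, lies 359 bases from the start of Marf1 on the opposite strand and 3649 bases upstream of the nearest annotated start of Nde1, a gene of the dynein pathway.

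The libraries held 16223610 to 27526162 tags. Values are tags per 1000000 tags of the library (CPM), so that 1 tag was worth 0.0363 to 0.0616 CPM. The libraries stood apart in the share of their tags that were known miRNAs: it was 57.9% and 65.9% in KO replicates 1 and 4 and 62.6% and 67.6% in WT replicates 3 and 4, against 77.6% and 75.9% in KO replicates 3 and 2 and 78.2% and 78.7% in WT replicates 1 and 2. These are called lower-share and higher-share libraries, 4 of each, with 2 of each genotype in both. They are groups made from the data and not from the labels, which give no batch. Known miRNAs were tested if 4 or more libraries reached 1 CPM, and across these 475 limma on log2(CPM + 1) called 0 between KO and WT at an adjusted p of 0.05 (0%), while 20 (4.21%) had an unadjusted p below that value.

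None of the listed miRNAs that were tested passed between KO and WT, and miR-702-5p was too rare to be tested. The KO and WT libraries overlapped in all 6 listed miRNAs. Over the 475 tested miRNAs, the libraries did not overlap in 14 (2.95%). The order of abundance of the 6 was the same in 8 of 8 libraries: miR-484, miR-320-3p, miR-877-5p, miR-877-3p, miR-702-3p and miR-702-5p, from highest to lowest. Over the 8 libraries, the ranges of miR-320-3p and miR-877-5p and those of the 2 arms of miR-877 were apart. The ranges of miR-484 and miR-320-3p, of miR-877-3p and miR-702-3p, and of the 2 arms of miR-702 overlapped. The mirtron arms together took 0.00145% to 0.00806% of the known miRNA CPM in KO libraries and 0.00162% to 0.00620% in WT libraries. miR-320-3p and miR-484 together took 0.119% to 0.583% in KO libraries and 0.102% to 0.613% in WT libraries.

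**Figure D1:**
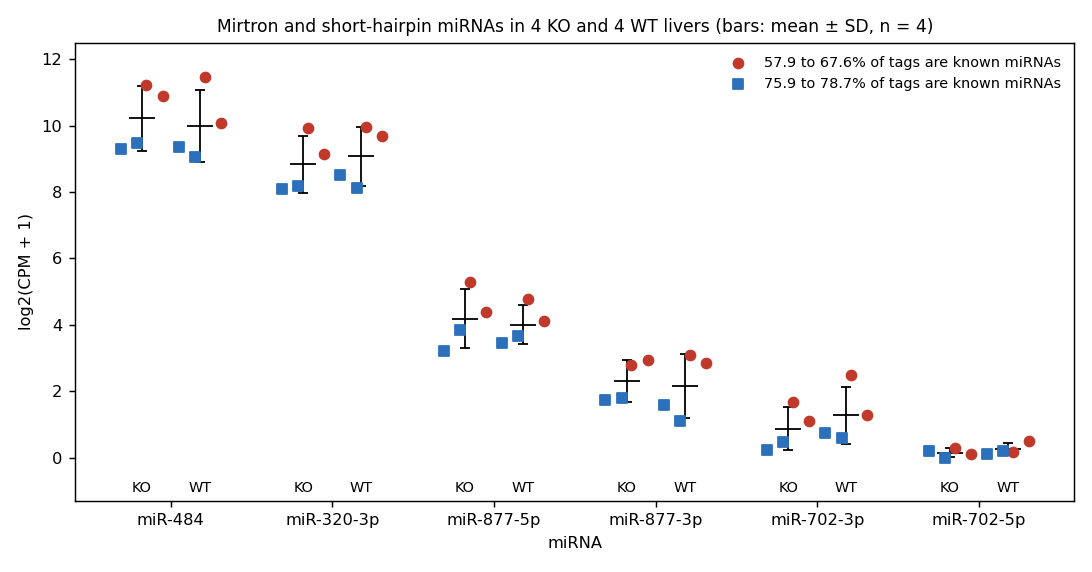
Level of each listed miRNA as log2(CPM + 1) in the 4 KO libraries (left of each pair) and the 4 WT libraries (right), with the mean and SD as black bars; circles are lower-share and squares are higher-share libraries. KO and WT overlap for all 6 miRNAs, while the circles lie above the squares within both genotypes for all but miR-702-5p.

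The most abundant mirtron arm was miR-877-5p, from the Abcf1 intron. It was at 38.3, 8.32, 13.3 and 20.0 CPM in KO replicates 1 to 4, against 9.87, 11.7, 26.5 and 16.2 CPM in WT replicates 1 to 4. The highest value was that of KO replicate 1 and the lowest that of KO replicate 2, so the KO libraries spanned the WT libraries. The means were 20.0 ± 13.1 CPM in KO and 16.1 ± 7.44 CPM in WT (SD, n = 4 each). On the log2 scale KO exceeded WT by 0.19 with an SE of 0.49 (Benjamini-Hochberg adjusted p = 0.971, limma), and its 95% interval of -0.90 to 1.28 corresponds to 0.535 to 2.42 times the WT level. An exact permutation test of this miRNA alone (two-sided, 70 assignments, smallest possible p 0.0286) gave p = 0.714. In bulk tissue, fewer cells that make a miRNA and less of it per cell cannot be told apart.

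miR-877-3p, the strand cut from the acceptor end of the same intron, was less abundant than miR-877-5p in every library. It was at 5.94, 2.33, 2.44 and 6.67 CPM in KO replicates 1 to 4, against 2.00, 1.15, 7.58 and 6.25 CPM in WT replicates 1 to 4. Within each genotype a pair of libraries lay above 5 CPM and a pair below 3 CPM, so that the groups overlapped. The means were 4.35 ± 2.28 CPM in KO and 4.25 ± 3.15 CPM in WT (SD, n = 4 each), a log2 fold change of 0.15 (SE 0.51, 95% interval -0.98 to 1.28, adjusted p = 0.971 from limma, exact permutation p = 0.771).

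The balance of the arms of miR-877 did not depend on the scaling between libraries, since both arms were counted in the same library. The 5p arm held 86.6%, 78.2%, 84.6% and 75.0% of the tags of both arms in KO replicates 1 to 4, against 83.2%, 91.1%, 77.8% and 72.1% in WT replicates 1 to 4. Thus the 5p arm was the major one in all 8 libraries. The mean share was 81.1 ± 5.42% in KO and 81.0 ± 8.07% in WT (SD, n = 4 each), a difference of 0.0199 percentage points with p = 1 in a two-sided exact permutation test. Each share rested on 293 to 960 tags in KO libraries and 291 to 553 tags in WT libraries. The 95% Wilson intervals, which cover counting error only, were 84.3% to 88.6% in KO replicate 1 and 67.7% to 76.2% in WT replicate 4, so that single libraries differed by more than counting error.

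In miR-702, the mirtron of Plod3, the 3p arm was the major one. miR-702-3p was at 2.21, 0.18, 0.39 and 1.16 CPM in KO replicates 1 to 4, against 0.69, 0.50, 4.62 and 1.44 CPM in WT replicates 1 to 4. These values rest on 5 to 75 tags, and 4 of the 8 libraries reached 1 CPM, 2 of each genotype. The means were 0.985 ± 0.919 CPM in KO and 1.81 ± 1.92 CPM in WT (SD, n = 4 each), and the log2 fold change of -0.40 (SE 0.46, 95% interval -1.42 to 0.62) had an adjusted p of 0.971 from limma and p = 0.514 in the exact permutation test. On the log2(CPM + 1) scale the change of so rare a miRNA is understated: the log2 fold change was -0.78 (SE 0.81) with a pseudocount of 0.1 and -0.86 (SE 0.89) with limma-voom, and neither passed the test.

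miR-702-5p was too rare for the test across miRNAs. It had 5, 4, 0 and 2 tags in KO replicates 1 to 4, against 2, 4, 2 and 8 tags in WT replicates 1 to 4. The 0 of KO replicate 3 allows up to 3 tags, or 0.116 CPM. The mean levels were 0.115 ± 0.0981 CPM in KO and 0.195 ± 0.159 CPM in WT, with p = 0.543 in the exact permutation test (two-sided, n = 4 each). The 5p arm made up 15.1 ± 19.9% of the miR-702 tags in KO and 14.9 ± 10.1% in WT (SD, n = 4 each, exact permutation p = 1). For the arm shares of miR-877 and miR-702, 2 comparisons were made, and the Benjamini-Hochberg adjustment leaves both p-values at 1.

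**Figure D2:**
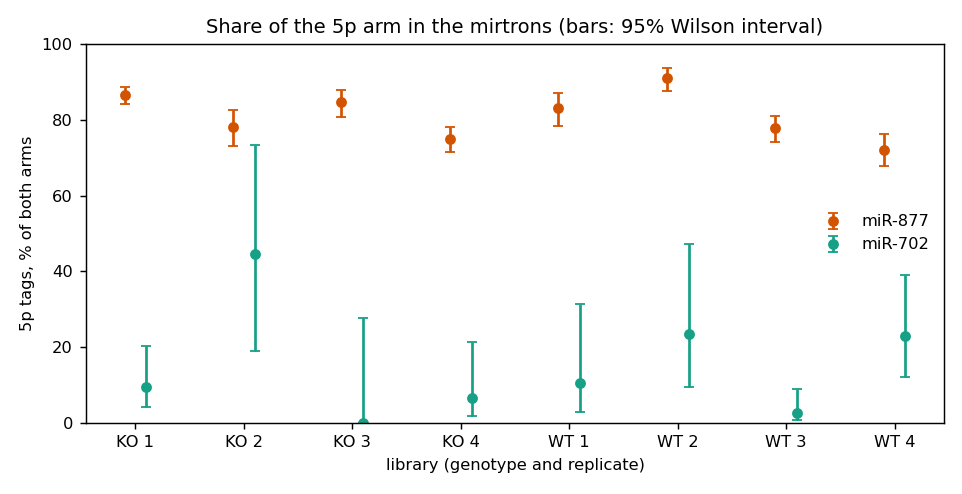
Tags of the 5p arm as a percentage of the tags of both arms of miR-877 and miR-702 in each KO and WT library, with 95% Wilson intervals. The 5p arm of miR-877 held 72.1% to 91.1% in every library, and that of miR-702 between 0% and 44.4% with wide intervals from few tags.

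miR-1224 was not detected as a mature miRNA at this depth. miR-1224-5p and miR-1224-3p were listed in none of the 8 libraries, which allows up to 3 tags, or 0.109 to 0.138 CPM in KO libraries and 0.115 to 0.185 CPM in WT libraries. Tags assigned to the Rfam family of its hairpin, rather than to a mature miRNA, came to 1 in KO replicate 3, 1 in WT replicate 2 and 0 in the others. Tags assigned in the same way to the Rfam family of miR-877 gave 7.52 ± 3.95 CPM in KO and 7.02 ± 3.56 CPM in WT (SD, n = 4 each, exact permutation p = 0.857). Where such tags lie in the hairpin is not given.

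miR-484 was the most abundant of these miRNAs. It was at 2402, 631.4, 705.0 and 1907 CPM in KO replicates 1 to 4, against 655.7, 526.2, 2852 and 1076 CPM in WT replicates 1 to 4. The highest and the lowest library were both WT. The means were 1411 ± 882 CPM in KO and 1278 ± 1076 CPM in WT (SD, n = 4 each). The log2 fold change was 0.24 with an SE of 0.61 (limma, adjusted p = 0.971; exact permutation p = 0.8). It had a 95% interval of -1.12 to 1.59, which corresponds to 0.460 to 3.02 times the WT level.

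miR-320-3p, the loaded strand of the capped hairpin, was at 972.4, 273.1, 288.7 and 560.8 CPM in KO replicates 1 to 4, against 363.8, 279.6, 988.6 and 826.1 CPM in WT replicates 1 to 4. The KO and WT ranges were nearly the same. The means were 523.8 ± 327.0 CPM in KO and 614.5 ± 346.3 CPM in WT (SD, n = 4 each), a log2 fold change of -0.24 (SE 0.53, 95% interval -1.42 to 0.95, adjusted p = 0.971 from limma, exact permutation p = 0.657). Its interval reaches 0.373 and 1.93 times the WT level. The other strand, miR-320-5p, was listed in none of the libraries.

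The ratio of miR-484 to miR-320-3p was 2.47, 2.31, 2.44 and 3.40 in KO replicates 1 to 4, against 1.80, 1.88, 2.89 and 1.30 in WT replicates 1 to 4. WT replicate 3 lay among the KO libraries, and the other 3 WT libraries lay below all 4. This ratio was formed after the values were seen, so no test is given for it. Tags assigned to the Rfam family mir-484, rather than to the mature miRNA, gave 66.6 ± 40.6 CPM in KO and 59.5 ± 37.3 CPM in WT (exact permutation p = 0.886, n = 4 each). Those of mir-320 gave 154.9 ± 20.7 CPM in KO and 193.8 ± 120.3 CPM in WT (exact permutation p = 0.914, n = 4 each).

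The tested mirtron arms and the mature miRNAs of the short hairpins separated the libraries by their share of known miRNA tags. In all 5 tested miRNAs the 4 lower-share libraries lay above the 4 higher-share libraries, as they did in 100 of the 475 tested miRNAs (21.1%); the opposite was the case in 46 (9.68%). miR-702-3p reached 1 CPM in just the lower-share libraries and so passed the minimum through them, which fixes its lack of overlap. The other 4 were above 1 CPM in all 8 libraries, and of the 368 tested miRNAs for which this holds 70 (19.0%) had no overlap in this direction. Tags assigned to the Rfam family mir-320 overlapped, at 116.5 to 371.4 CPM in lower-share and 122.8 to 164.7 CPM in higher-share libraries. Those of mir-484 did not, at 60.8 to 111.8 CPM against 25.9 to 37.8 CPM. Those of mir-877 did not either, at 8.34 to 12.1 CPM against 2.72 to 6.50 CPM. No test is given for this split, which was chosen with earlier results of these data known.

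miR-484 averaged 2059 ± 761 CPM in lower-share and 629.6 ± 75.4 CPM in higher-share libraries (SD, n = 4 each), a difference of means of 1.63 on the log2(CPM + 1) scale. miR-320-3p averaged 837.0 ± 198 CPM in lower-share and 301.3 ± 42.1 CPM in higher-share libraries, a difference of 1.45. For both miRNAs the lowest lower-share library lay above the highest higher-share library, by 560.8 against 363.8 CPM for miR-320-3p and 1076 against 705.0 CPM for miR-484. miR-877-3p averaged 6.61 ± 0.713 CPM in lower-share and 1.98 ± 0.584 CPM in higher-share libraries (1.37), and miR-877-5p 25.2 ± 9.68 CPM in lower-share and 10.8 ± 2.19 CPM in higher-share libraries (1.10). For miR-702-3p the difference was 1.13. The sign of this difference follows from the minimum, as the lack of overlap does, but its size does not. For miR-702-5p, whose libraries overlapped, the difference was 0.14. Over all 475 tested miRNAs the median difference was 0.24, and miR-484, miR-320-3p, miR-877-3p and miR-877-5p ranked 17, 29, 34 and 68 from the top.

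**Figure D3:**
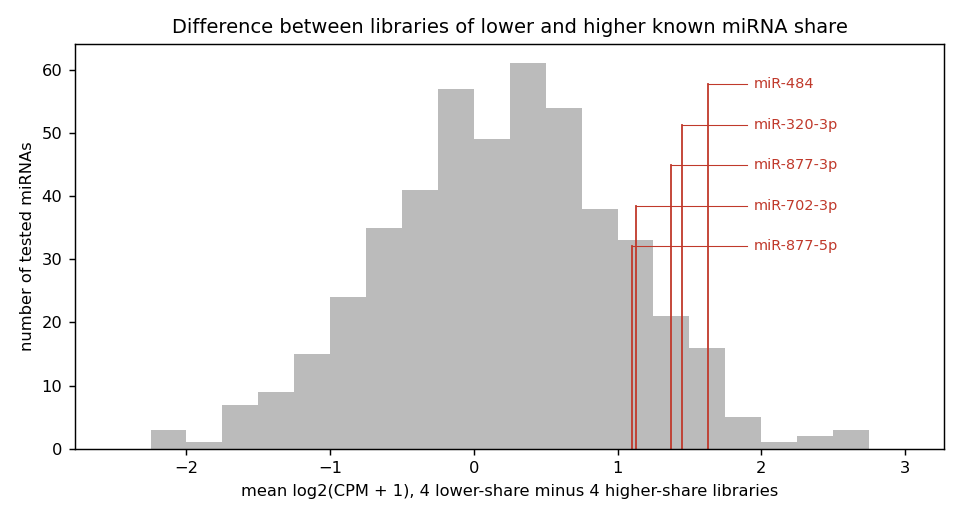
Number of tested miRNAs (y axis, 475 in all) by the mean log2(CPM + 1) of the 4 lower-share minus that of the 4 higher-share libraries (x axis), with the 5 tested miRNAs described here as red lines. miR-484, miR-320-3p and both arms of miR-877 lie between 1.10 and 1.63, against a median of 0.24. miR-702-3p lies at 1.13, and its positive sign, though not its size, is set by the minimum of 1 CPM.

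Other values moved with the same split, and their part in the result was not tested. The summed levels of 4 hepatocyte, 3 erythroid and 2 endothelial marker miRNAs did not overlap and were lower in the lower-share libraries: 244255 to 296865 CPM against 326629 to 382444 CPM for the hepatocyte list, 7362 to 9824 CPM against 13336 to 17396 CPM for the erythroid list, and 5812 to 6653 CPM against 12518 to 19516 CPM for the endothelial list. The sums followed the most abundant member of each list. All of these markers are known miRNAs, so their tags are part of the share that made the groups. miR-122-5p alone averaged 228430 CPM in lower-share and 323970 CPM in higher-share libraries. The gap in the hepatocyte sum was thus in large part built into the split. Only 1 marker of each list was lower in all 4 lower-share libraries than in all 4 higher-share libraries, namely miR-122-5p, miR-451a and miR-126a-3p. Among the other markers of these lists, miR-192-5p (hepatocyte) and miR-486a-5p (erythroid) had lower-share minus higher-share differences of 0.043 and 0.38 on the log2(CPM + 1) scale. The rest were negative: -0.13 for miR-194-5p and -0.59 for miR-148a-3p (hepatocyte), -0.26 for miR-144-3p (erythroid) and -0.65 for miR-126a-5p (endothelial). The sums of the leukocyte, mesenchymal, biliary and pancreas and muscle lists overlapped between lower-share and higher-share libraries. Even so, 1 of the 5 mesenchymal markers was higher in all lower-share than in all higher-share libraries. Differences in that list ran from -2.13 (miR-199a-3p) to 1.35 (miR-214-3p). In the leukocyte list they ran from -0.14 (miR-155-5p) to 1.23 (miR-150-5p). No list had a marker at 0 in all libraries. Base composition differed too. The 5 listed miRNAs with a sequence had a median GC content of 63.6%, against 50% over the tested miRNAs with a sequence. Of tested miRNAs with at least 59% GC, a limit set after seeing these 5, 42 of 104 (40.4%) were higher in the lower-share libraries without overlap, against 42 of 298 (14.1%) of those under that limit.

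Within the lower-share and within the higher-share libraries, KO and WT were compared as 2 against 2. miR-484 had KO minus WT differences of 0.29 and 0.18 on the log2 scale in lower-share and higher-share libraries, and miR-320-3p of -0.29 and -0.18. miR-702-3p had -0.49 and -0.31. The arms of miR-877 changed sign, with 0.40 and -0.026 for miR-877-5p and -0.11 and 0.41 for miR-877-3p. With the split as a covariate in limma, 1 of 475 miRNAs was called (0.211%), miR-1247-5p. None of the 5 was: their SE fell to between 0.21 and 0.31, against 0.46 to 0.61 without it, and their adjusted p lay between 0.495 and 0.823. The narrowest 95% interval in this fit was that of miR-877-3p, from -0.33 to 0.64. A model of the tags summed over the mice of each genotype, in which differences between mice do not enter, called 426 of 1341 miRNAs (31.8%). Among those called were miR-877-5p, miR-702-3p, miR-320-3p and miR-484, but not miR-877-3p or miR-702-5p. The 1341 include 866 miRNAs below the minimum, and the share among the 475 tested was not worked out.

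Other hairpins that fill an annotated intron, with both ends within 10 bases of its ends, gave 33 listed mature miRNAs, of which 6 were tested and 0 called (0 also at an unadjusted p below 0.05, limma). Their log2 fold changes ran from -0.06 to 0.55 with a median of 0.15, 4 positive and 2 negative, against a median of -0.11 over all tested miRNAs. miR-1981-5p was the most abundant, at 203.6 ± 77.2 CPM in KO and 191.2 ± 60.1 CPM in WT (SD, n = 4 each, log2 fold change 0.08, SE 0.36). miR-7032-3p had the largest log2 fold change of the 6, 0.55 (SE 0.35; limma, adjusted p = 0.853). Of the 6, the arms miR-1981-5p and miR-1981-3p and miR-7070-3p were higher in the lower-share libraries without overlap, 3 of 6 beside 100 of all 475 tested (21.1%). The last of these reached 1 CPM in just those libraries, so that its lack of overlap is fixed by the minimum. Hairpins with 1 end within 10 bases of an intron end gave 339 listed miRNAs, 19 of them tested and 0 called (0 also at an unadjusted p below 0.05), with a median log2 fold change of 0.09. Of these 19, 8 were higher in the lower-share libraries without overlap and 1 was lower, beside 21.1% and 9.68% of all tested miRNAs, and the minimum fixes the lack of overlap of miR-6985-3p, miR-7052-3p and miR-7069-3p, which reached 1 CPM in the lower-share libraries alone, and of miR-7043-3p, which reached it in the higher-share libraries alone.

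The miRNAs of other routes were a snoRNA-derived, a tRNA-derived and an Ago2-cut set of 6, all tested and 0 called. All 6 had a negative log2 fold change, with a median of -0.51, beside 279 of the 475 tested. miR-1983, cut from a tRNA, had an unadjusted p of 0.0492 (adjusted p = 0.842, limma), with 3.43 ± 0.355 CPM in KO and 6.65 ± 2.96 CPM in WT (SD, n = 4 each). miR-451a, which Ago2 and not Dicer cuts, was at 10868 ± 3840 CPM in KO and 12404 ± 4462 CPM in WT (log2 fold change -0.19, SE 0.34). It was lower in the lower-share libraries without overlap, opposite to the mirtrons, at 7084 to 9488 CPM in lower-share against 13254 to 17216 CPM in higher-share libraries; it is also 1 of the 3 erythroid markers.

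**Figure D4:**
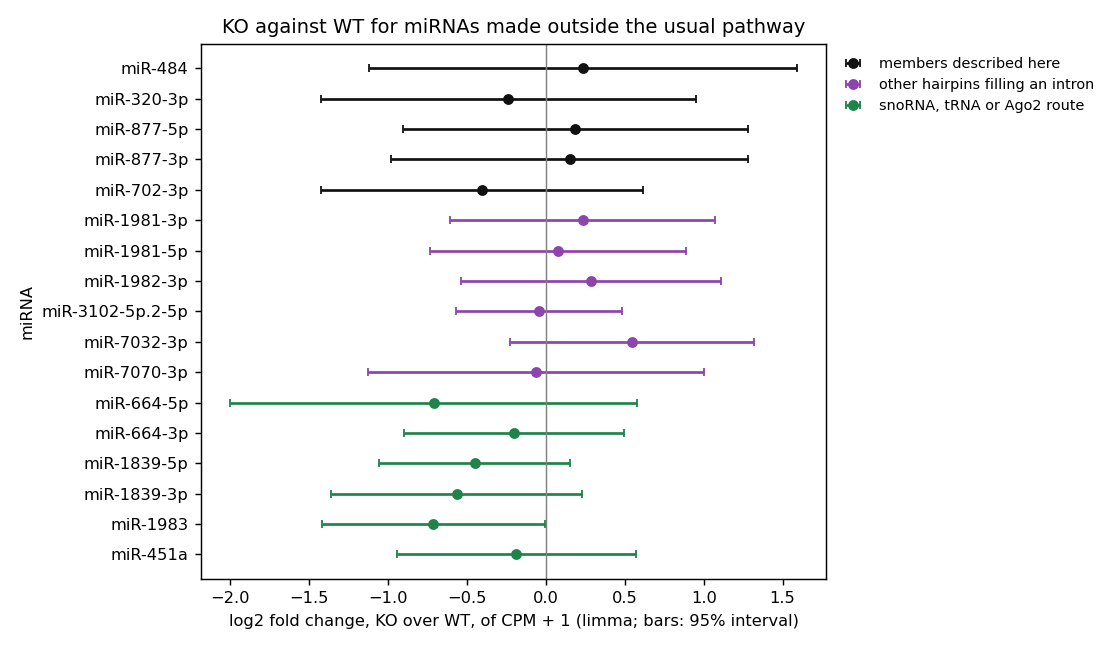
Log2 fold change of KO over WT (x axis, limma on log2(CPM + 1)) with 95% intervals for the 5 tested miRNAs described here (black), 6 tested miRNAs of other hairpins that fill an intron (purple) and 6 of other routes (green). All intervals but that of miR-1983, which ends just below 0, include 0, and no miRNA passed the adjusted threshold.

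The miRNA whose pattern over the 8 libraries was most like that of each tested miRNA was found as the smallest root mean square distance between log2(CPM + 1) values centred on their own mean. For miR-484 and for miR-877-3p it was miR-574-3p, at distances of 0.23 and 0.22. For miR-320-3p it was the other arm of that hairpin, miR-574-5p, at 0.23. miR-574-3p was at 1861, 688.7, 560.0 and 1699 CPM in KO replicates 1 to 4, against 627.6, 478.7, 2166 and 1315 CPM in WT replicates 1 to 4, and so was high in the same 4 libraries as the miRNAs it was matched to, as the choice by distance implies. miR-877-5p was nearest to miR-328-5p (0.19), and miR-702-3p to miR-7052-3p (0.21), whose hairpin has 1 end at an intron end. The median distance to the 473 or 474 miRNAs of other hairpins was 0.73 to 0.92.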

How the data were processed

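Small RNA from 8 livers was sequenced at BGI, and per the labels the authors mapped tags with Bowtie (version not given) to GRCm38; the study compared the genotypes with DEGseq. The deposited values are CPM of the whole library (headed TPM, rounded to 2 decimals), made by the authors and not divided by length. How tags with several loci were counted is not given in the sources used here. Repeated rows of an id were summed, and an id missing from a file was set to 0. Each library's total was taken to be the number by which all its values become whole tags (100% within 0.0051 CPM); for KO replicate 1, whose file lacks the genomic classes, it rests on this alone. Tags carry no molecular identifiers, so intervals cover counting error only.

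limma 3.58.1 (R 4.3.3), tested on simulated data, was fitted with a mean-variance trend to log2(CPM + 1) of the 475 known miRNAs that reached 1 CPM in 4 or more libraries, with Benjamini-Hochberg adjustment and a threshold of 0.05. Single values were compared by two-sided exact permutation tests (Python 3.11.15). The members and lists were chosen with earlier results of these data known. Named miRNAs were the members, the other arms of their hairpins, their nearest patterns, called miRNAs and examples from the lists. Hairpin positions came from the GRCm38 annotation, which held 1327 of the 1341 known miRNAs, and sequences from RefSeq (GRCm38.p6). Other pseudocounts, scalings, filters and models were tried, and each library was left out in turn.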

Additional observations from a re-analysis of the deposited data

How the results depend on the processing

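The count of called miRNAs stayed at 0 with limma under other pseudocounts (0.1 and 10), 2 other scalings, other filters, limma-voom and a replicate block. It was 1 with the split by share of known miRNA tags as a covariate, 1 (miR-532-5p) in the higher-share libraries alone, a choice made after seeing the data, and 0 to 1 with each library left out (1, miR-196b-5p, without WT replicate 2). With tags pooled within each genotype, which leaves out the spread between mice, it was 426 of 1341 (31.8%), with miRNAs below the minimum included. That model called miR-877-5p (log2 fold change 0.34), miR-702-3p (-0.75), miR-320-3p (-0.16) and miR-484 (0.26). Without single libraries, the log2 fold change ran from -0.18 to 0.51 for miR-877-5p, -0.20 to 0.46 for miR-877-3p, -0.60 to 0.056 for miR-320-3p and -0.10 to 0.73 for miR-484, and from -0.63 to -0.19 for miR-702-3p, which fell under the minimum in 4 of the 8 fits. The 5p share of miR-877, KO minus WT, ran from -2.95 to 3.37 percentage points, and that of miR-702 from -9.51 to 5.30. So in these fits the sign of these values, miR-702-3p apart, rested on single libraries. For miR-702-3p it held in the 4 fits made, each without a higher-share library. No fit left out a lower-share library, such as WT replicate 3 with the highest value of 4.62 CPM. WT replicates 1, 2 and 4, at 0.69, 0.50 and 1.44 CPM, lay within the KO range of 0.18 to 2.21 CPM. The WT mean of miR-702-3p exceeded the KO mean only with WT replicate 3 included, so its sign rested on that library. The sign also turned for miR-877-5p in the higher-share libraries (-0.026) and for miR-877-3p in the lower-share libraries (-0.11). The cause was not tested. A minimum of 10 CPM left out miR-877-3p and miR-702-3p. With the replicate block 0 were called and 15 had an unadjusted p below 0.05, against 20 without it. Deviations from the group means correlated at -0.46, 0.35, -0.53 and 0.07 between same-numbered KO and WT libraries. Differently numbered libraries of the same share group reached 0.49 (KO replicate 1 with WT replicate 3) and 0.50 (KO replicate 2 with WT replicate 1). Whether the numbers pair the mice is not stated, and these correlations cannot show it. Between settings, the log2 fold change of miR-702-3p ran from -0.86 (limma-voom) to -0.10 (pseudocount 10). The planned quasi-likelihood count test was not run, since a separate check of the steps between the deposited CPM values did not accept them as whole tags; limma-voom and the pooled model used the tags recovered here. Depth limits miR-702-5p and miR-1224, at 8 tags or fewer in each library.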
